A study of Mus musculus with 4 samples.

Results

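The genes described here are 32 transcripts of skeletal muscle fibres, read as a measure of how much striated muscle each skin sample contained. They were taken by gene name from the deposited table, where each of the 32 names stood on 1 row of the 47725. All 32 passed the filter on low counts and were among the 17440 genes tested. They comprise 14 isoforms typical of fast fibres, 4 typical of slow fibres, the perinatal myosin Myh8 and 13 genes used by all fibre types.

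Poly(A) RNA of frozen, pulverised skin was sequenced from C57BL/6J mice at 17 weeks of age, in 2 libraries per group. The control group, titled PP6fl/fl, carried floxed alleles of Ppp6c, the catalytic subunit of protein phosphatase 6. The other group is titled cKO. The series title names K5 together with the floxed allele, read here as Cre recombinase driven by the keratin 5 promoter in basal keratinocytes, so that both groups carry the floxed alleles. Such a deletion would lie in keratinocytes and not in muscle. The libraries are numbered 2 and 3 in each group and are called control 2, control 3, cKO 2 and cKO 3 below, the cKO libraries by their labels. The labels do not tie each library to its own animal, and the p-values below therefore reflect only how far these libraries scatter, which may be technical.

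The estimated counts summed to between 15837136 and 23407731 per library. Ppp6c stood at 57.8 and 61.8 CPM (counts scaled to library size with TMM factors) in control 2 and control 3, and at 62.1 and 50.1 CPM in cKO 2 and cKO 3. Its groups overlapped, and a count over the whole gene does not show whether its floxed part was deleted, so it leaves the labels unchecked. The chi-square per gene, where sampling noise alone gives about 1, was 26.2 between the controls and 102 between the cKO libraries, so no library was a copy of another.

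Mouse skin has a thin sheet of striated muscle, the panniculus carnosus, beneath its fat, so RNA of whole skin can hold muscle transcripts. In a fibre, myosin thick filaments pull on actin thin filaments when calcium, released from the sarcoplasmic reticulum, binds troponin. Fast and slow fibres build this machine from different isoforms of the same proteins. The hair erector muscle of skin is smooth muscle and expresses another set of actin and myosin genes.

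Muscle transcripts were abundant in both controls and in cKO 3, and scarce in cKO 2. The 32 genes together took 1.75% of all counts in control 2 (95% Clopper-Pearson interval 1.75% to 1.76%) and 2.63% in control 3 (2.62% to 2.64%). They took 0.398% in cKO 2 (0.394% to 0.401%) and 2.37% in cKO 3 (2.36% to 2.38%). The intervals cover counting error only. cKO 2 thus stood apart from the other libraries, while cKO 3 lay between the controls. In summed CPM, cKO 3 was 6.16-fold above cKO 2 and the control mean 5.36-fold above cKO 2, whereas control 3 was 1.52-fold above control 2 and cKO 3 was 1.15-fold above the control mean. In bulk RNA, fewer muscle fibres and less muscle RNA per fibre cannot be told apart.

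The group comparison of the summed level did not pass. The mean log2 summed CPM was lower by 1.08 in cKO (log2 difference -1.08, exact permutation test over 4 libraries, two-sided p = 0.667), and with 6 groupings the smallest p this design allows is 0.333. The direction rested on cKO 2: the difference was 0.23 without that library and -2.39 without cKO 3.

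**Figure D1:**
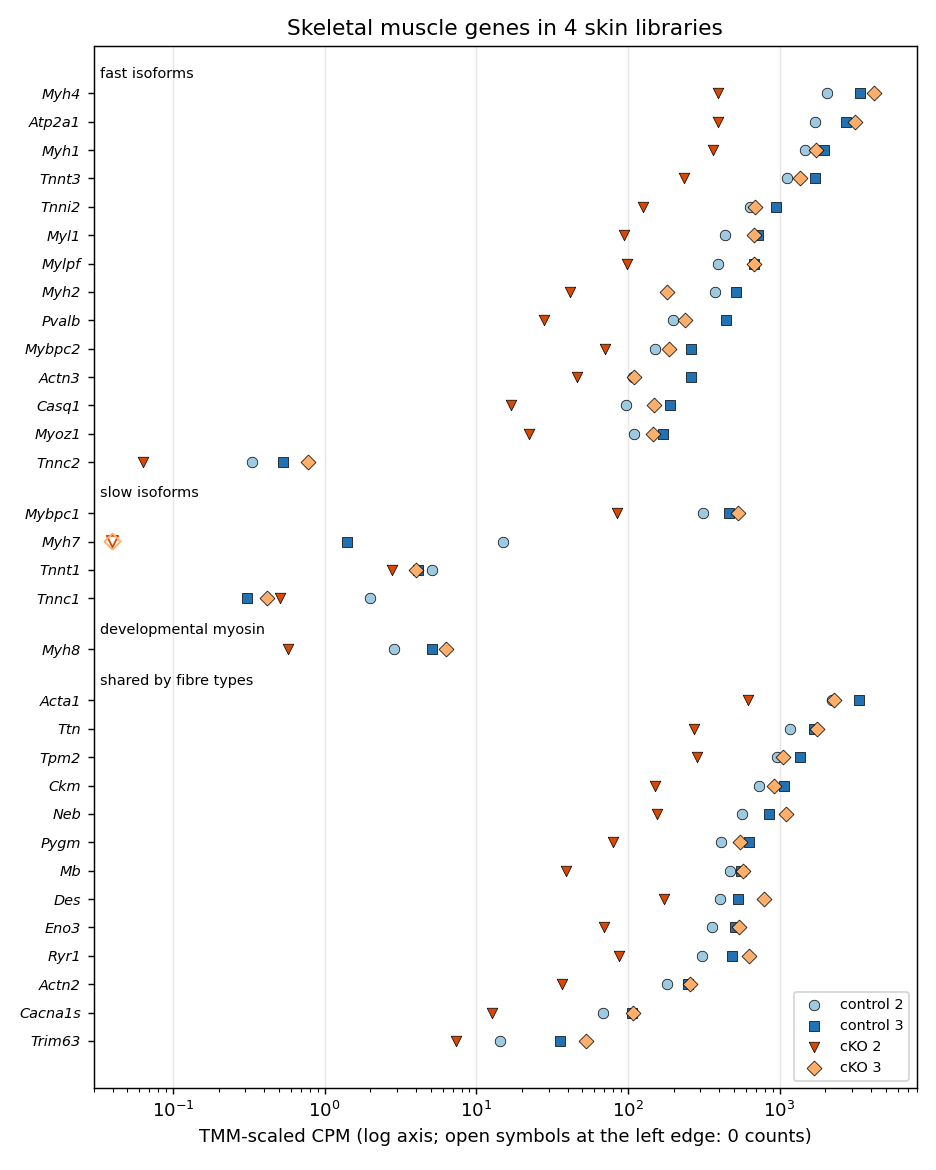
Level of each of the 32 muscle genes in each of the 4 libraries, in TMM-scaled CPM on a log axis, with 1 point per library and genes grouped by fibre type. The cKO 2 points lie below the others for nearly all genes, the cKO 3 points lie among the controls, and Myh7 has 0 counts in both cKO libraries.

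The label of skeletal muscle was checked against fibre-defining genes. Acta1, the actin of skeletal muscle thin filaments, was at 1580 and 2357 FPKM (fragments per kilobase of transcript, scaled to library size, so that genes can be compared) in control 2 and control 3, and at 430.1 and 1532 in cKO 2 and cKO 3. Genes of heart muscle were low. Tnni3, the cardiac troponin I, stayed between 2.23 and 5.07 CPM, and Myh6, the atrial myosin, had 9, 15, 0 and 6 counts in the 4 libraries. The 4 cardiac genes tested had a median log2 fold change of 0.97. Among them Nppb, a natriuretic peptide, was at 0.457 and 0.220 CPM in the controls and at 9.03 and 3.76 in cKO 2 and cKO 3 (edgeR quasi-likelihood adjusted p = 0.0723), and Mybpc3, the cardiac myosin-binding protein C, had 4 counts in each control and 9 and 15 in cKO 2 and cKO 3. A group of 8 genes made up most of the signal: Acta1, Myh4, Atp2a1, Myh1, Ttn, Tnnt3, Tpm2 and Ckm took 67.0% and 66.8% of the members' counts in the controls and 67.7% and 66.7% in the cKO libraries. Their joint share therefore stayed within 1 percentage point while the amount differed 6.16-fold between the cKO libraries. Single shares within it moved in opposite directions. From cKO 2 to cKO 3, Acta1 went from 15.5% to 9.27% and Tpm2 from 7.16% to 4.28%. Myh4 went from 9.78% to 16.9% and Atp2a1 from 9.75% to 12.8%.

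Regulatory sequence is shown for the 3 genes with the highest counts among those in the RefSeq promoter table (GRCm38.p6), to show sequence that muscle genes share. Each run is 300 bases, read 5′ to 3′ on the gene's strand, from 250 bases before the start of transcription to 50 after it. Capitals mark CAGCTG, an E-box of the kind that MyoD family factors bind, and TATAAA, the TATA box, on either strand. Myh4 lies at chr11:67237562-67237861 (plus strand), Acta1 at chr8:123894726-123895025 (minus strand) and Atp2a1 at chr7:126463024-126463323 (minus strand).
Myh4: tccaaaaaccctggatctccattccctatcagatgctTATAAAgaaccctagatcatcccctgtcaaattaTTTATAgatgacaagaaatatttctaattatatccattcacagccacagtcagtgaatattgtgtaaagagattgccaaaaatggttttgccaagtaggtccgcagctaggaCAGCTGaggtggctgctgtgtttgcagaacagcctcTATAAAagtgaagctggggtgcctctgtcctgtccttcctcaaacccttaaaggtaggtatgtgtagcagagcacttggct
Acta1: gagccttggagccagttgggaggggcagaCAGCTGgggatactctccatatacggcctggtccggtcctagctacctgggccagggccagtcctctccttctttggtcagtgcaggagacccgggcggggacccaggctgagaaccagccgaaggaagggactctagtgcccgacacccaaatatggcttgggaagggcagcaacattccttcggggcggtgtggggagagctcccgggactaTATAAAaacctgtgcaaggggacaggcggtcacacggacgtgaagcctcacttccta
Atp2a1: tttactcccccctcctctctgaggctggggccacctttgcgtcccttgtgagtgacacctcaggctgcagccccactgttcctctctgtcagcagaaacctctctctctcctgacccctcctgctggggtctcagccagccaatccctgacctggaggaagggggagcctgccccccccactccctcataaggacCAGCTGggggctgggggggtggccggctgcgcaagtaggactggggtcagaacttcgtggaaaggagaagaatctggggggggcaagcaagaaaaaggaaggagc
The E-box begins 67 bases before the start in Myh4, 221 in Acta1 and 55 in Atp2a1. Myh4 has a TATA box 31 bases before its start and Acta1 one 7 bases before. The table held 31 windows for 27 of the 32 genes, with none for Myoz1, Tnni2, Actn3, Tnnt3 and Neb. CAGCTG, searched on both strands, was in 16 of these 31 windows (51.6%) and in 16.3% of all 32851 windows in the table. TATAAA was in 8 of the 31 (25.8%) and in 13.6% of all windows. A match describes letters and is not evidence of binding.

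The fast myosin heavy chains Myh1, Myh2 and Myh4, the motors of the thick filament, together took 22.9% and 22.8% of the members' counts in the controls, 19.8% in cKO 2 and 24.7% in cKO 3. Myh4, the heavy chain of the fastest (2B) fibres, was at 2047 and 3414 CPM in control 2 and control 3 and at 392 and 4182 in cKO 2 and cKO 3. It was thus highest in one cKO library and lowest in the other, with a log2 fold change of -0.26 ± 1.09 (mean ± SE over 2 libraries per group; adjusted p = 0.926 in edgeR's quasi-likelihood test). Myh1, the heavy chain of 2X fibres, was at 1477 and 1967 CPM in the controls and at 362 and 1733 in cKO 2 and cKO 3. Its cKO 3 level lay between the controls, with a log2 fold change of -0.72 ± 0.77 (adjusted p = 0.672).

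Myh2, the heavy chain of 2A fibres, was the exception among the fast myosins. It was at 376 and 515 CPM in the controls (mean 446 ± 97.9, SD, n = 2) and at 41.7 and 181 in cKO 2 and cKO 3 (mean 111 ± 98.2). Both cKO libraries were below both controls. Its log2 fold change was -2.003 ± 0.73 and did not pass with edgeR quasi-likelihood (adjusted p = 0.237). DESeq2 did call it (adjusted p = 0.0274), as did the authors' deposited table (log2 fold change -2.03, false discovery rate 0.00498), while the edgeR exact test did not (adjusted p = 0.0662). With cKO 3 as the only cKO library, so at control-level muscle content, the log2 fold change of Myh2 was -1.30 ± 0.24 (edgeR quasi-likelihood adjusted p = 0.0519), and without cKO 3 it was -3.41 ± 0.27 (adjusted p = 0.0234).

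Myh7, the slow myosin heavy chain shared with heart, had 364 counts in control 2, 32 in control 3 and 0 in each cKO library. Control 2 held most of it, at 10.7-fold the CPM of control 3. Against a floor of 3 counts over the whole cKO group, the control level was at least 91.7-fold higher, and that of control 3 alone at least 15.3-fold higher. It did not pass with edgeR quasi-likelihood (adjusted p = 0.167). It was called by the edgeR exact test (adjusted p = 8.47e-05), by DESeq2 (0.0176) and in the authors' deposited table (false discovery rate 4.3e-08). Myh8, the perinatal heavy chain, was at 2.87 and 5.11 CPM in the controls and at 0.573 and 6.33 in cKO 2 and cKO 3.

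Per length, the 5 heavy chains summed to 645 and 965 FPKM in the controls and to 127 and 954 in cKO 2 and cKO 3. Myh4 took 54.2% and 59.7% of that sum in the controls, 50.9% in cKO 2 and 69.9% in cKO 3. Myh1 took 37.1% and 32.6% in the controls, 44.5% in cKO 2 and 27.5% in cKO 3. The order Myh4, Myh1, Myh2 thus held in every library, though the Myh4 share was highest and the Myh1 share lowest in cKO 3. Myh2 took 8.40% and 7.59% in the controls and 4.57% and 2.55% in the cKO libraries, so that its groups did not overlap. Myh7 took 0.281% and 0.0176% in control 2 and control 3, and Myh8 at most 0.0545% in any library. These genes resemble each other: 26.9% of the 50-base windows of the Myh2 transcript, 26.7% of those of Myh1 and 18.9% of those of Myh4 also occur in other genes' transcripts (GENCODE M21), so the authors' estimation may have split reads among them. For Myh7 the share was 22.2%, with Myh6 as the leading other gene.

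**Figure D2:**
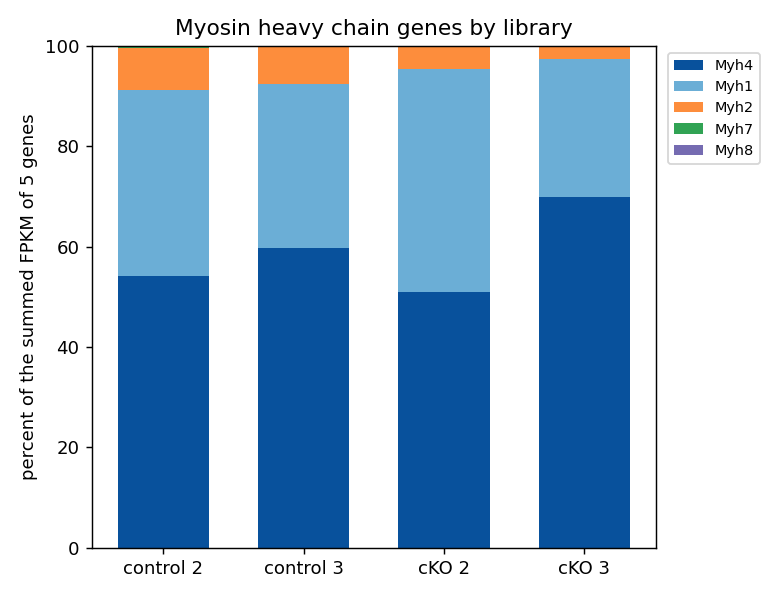
Share of each of 5 myosin heavy chain genes in their summed FPKM, in percent, as 1 stacked bar per library starting at 0. Myh4 and Myh1 fill most of every bar, the Myh2 share is 7.59% to 8.40% in the controls and 2.55% to 4.57% in the cKO libraries, and Myh7 and Myh8 are too thin to see.

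The myosin light chains and other thick-filament genes followed the library pattern. Mylpf, the regulatory light chain of fast fibres, was at 392 and 676 CPM in the controls and at 99.3 and 683 in cKO 2 and cKO 3. Myl1, the essential light chain of fast fibres, was at 436 and 717 CPM in the controls and at 94.1 and 681 in cKO 2 and cKO 3. For Myl1, 23.4% of windows are shared with a pseudogene. Ttn, the giant spring that spans the sarcomere from Z-disc to M-band, was at 1176.5 and 1678 CPM in the controls and at 272 and 1774 in cKO 2 and cKO 3 (log2 fold change -0.48 ± 0.89, edgeR quasi-likelihood adjusted p = 0.819).

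Myosin-binding protein C exists in a fast form, Mybpc2, and a slow form, Mybpc1. Mybpc2 was at 150 and 260 CPM in the controls and at 71.1 and 186 in cKO 2 and cKO 3. Mybpc1 was at 312 and 467 CPM in the controls and at 84.8 and 534 in cKO 2 and cKO 3. Per length, Mybpc1 supplied 62.4% and 58.8% of the pair in the controls, 48.7% in cKO 2 and 69.7% in cKO 3, so the slow form was the more abundant in every library but cKO 2.

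The thin filament genes were among the most abundant. Acta1 was at 2203 and 3323 CPM in the controls and at 621 and 2287 in cKO 2 and cKO 3 (log2 fold change -0.93 ± 0.69, edgeR quasi-likelihood adjusted p = 0.528). Tpm2, a tropomyosin that shields the actin filament, was at 965 and 1364 CPM in the controls and at 287 and 1058 in cKO 2 and cKO 3. For both genes cKO 2 lay below both controls and cKO 3 within them. Neb, nebulin, the ruler along the thin filament, was at 562 and 846 CPM in the controls and at 155 and 1098 in cKO 2 and cKO 3, and was highest in cKO 3.

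The calcium switch of the thin filament, troponin, used the fast form of its tropomyosin-binding subunit almost wholly. Tnnt3, the fast tropomyosin-binding subunit, was at 829 and 1256 FPKM in the controls and at 168 and 938 in cKO 2 and cKO 3. Its slow counterpart Tnnt1 was at 2.38 and 1.91 FPKM in the controls and at 1.26 and 1.74 in cKO 2 and cKO 3. Tnnt1 therefore held between 0.152% and 0.743% of the pair, with the highest share in cKO 2. Tnni2, the fast inhibitory subunit, was at 439.7 and 639.7 FPKM in the controls and at 82.9 and 445 in cKO 2 and cKO 3.

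The calcium-binding subunit stood apart from these partners. Tnnc2, the fast form, had 8 and 12 counts in the controls and 1 and 13 in cKO 2 and cKO 3, or at most 0.93 FPKM in any library. Tnnc1, the slow and cardiac form, had 48 and 7 counts in the controls and 8 and 7 in cKO 2 and cKO 3. Both calcium-binding forms were thus close to 0 in libraries where Tnnt3 reached 1256 FPKM and Tnni2 639.7, and 0% of the 50-base windows of Tnnc2 occur in another gene's transcripts. The reason was not tested. At these counts no difference between groups in Tnnc2 or Tnnc1 was detectable (edgeR quasi-likelihood adjusted p = 0.996 and 0.531).

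Among Z-disc and cytoskeletal genes, Actn3, the fast-fibre α-actinin that anchors thin filaments, was at 108 and 260 CPM in the controls and at 46.1 and 110 in cKO 2 and cKO 3 (log2 fold change -1.24 ± 0.61, edgeR quasi-likelihood adjusted p = 0.349). Actn2, the α-actinin of all fibres, was at 181 and 248 CPM in the controls and at 36.6 and 258 in cKO 2 and cKO 3. Actn2 in cKO 3 was above both controls, whereas Actn3 in cKO 3 was close to the lower control. Myoz1, a Z-disc protein of fast fibres, was at 110 and 171 CPM in the controls and at 22.2 and 148 in cKO 2 and cKO 3.

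Des, desmin, the intermediate filament that ties myofibrils together and is also made by smooth muscle, differed less between cKO 2 and the control mean than any member except the scarce Tnnt1 and Tnnc1. It was at 407 and 531 CPM in the controls and at 173 and 788 in cKO 2 and cKO 3. Its log2 fold change was 0.04 ± 0.73 (edgeR quasi-likelihood adjusted p = 0.986).

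The genes of calcium release and uptake had the same shape. Ryr1, the calcium release channel of the sarcoplasmic reticulum, was at 310 and 483 CPM in the controls and at 88.1 and 625 in cKO 2 and cKO 3. Cacna1s, the voltage sensor of the T-tubule that opens it, was at 68.4 and 107 CPM in the controls and at 12.7 and 108 in cKO 2 and cKO 3. Atp2a1, the fast-fibre calcium pump that refills the store, was at 1704 and 2732 CPM in the controls and at 391 and 3158 in cKO 2 and cKO 3. All 3 were highest in cKO 3 and lowest in cKO 2. Casq1, the calcium-binding protein of the store in fast fibres, was at 97.7 and 190 CPM in the controls and at 17.0 and 149 in cKO 2 and cKO 3. Pvalb, parvalbumin, a soluble calcium buffer of fast fibres, was at 199 and 443 CPM in the controls and at 28.1 and 238 in cKO 2 and cKO 3 (log2 fold change -1.27 ± 1.04, edgeR quasi-likelihood adjusted p = 0.570).

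The metabolic members serve the fast supply of ATP and oxygen. Ckm, muscle creatine kinase, was at 737 and 1072 CPM in the controls and at 152 and 920.4 in cKO 2 and cKO 3. Pygm, the glycogen phosphorylase of muscle, was at 412 and 625 CPM in the controls and at 79.9 and 549.5 in cKO 2 and cKO 3. Eno3, the muscle enolase of glycolysis, was at 360.2 and 512 CPM in the controls and at 69.9 and 544 in cKO 2 and cKO 3. In all 3 genes the cKO 3 level was near or within the control range.

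Mb, myoglobin, the oxygen store of oxidative fibres, differed most between the cKO libraries. It was at 472 and 559.9 CPM in the controls and at 38.8 and 578 in cKO 2 and cKO 3, a 14.9-fold difference between cKO 3 and cKO 2. Its log2 fold change over all libraries was -0.74 ± 1.17 (edgeR quasi-likelihood adjusted p = 0.780). Trim63, a ubiquitin ligase of muscle protein breakdown, was at 14.3 and 35.8 CPM in the controls and at 7.38 and 53.2 in cKO 2 and cKO 3 (log2 fold change 0.27 ± 0.99, adjusted p = 0.912).

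Over the members, edgeR quasi-likelihood called 0 of 32 genes, beside 1.09% of all 17440 genes. At an unadjusted p under 0.05 it had 2 of the 32 members, Myh2 and Myh7, beside 3489 of all 17440 genes, so members were below the background here too. DESeq2 called 2 (Myh2 and Myh7, beside 10.8% of all genes), the edgeR exact test 1 (Myh7, beside 10.4%) and limma voom 0 (beside 1.15%). The authors' deposited table marks 2 members, Myh2 and Myh7, beside 3.23% of its rows. Both cKO libraries lay below both controls in 3 members (Myh2, Myh7 and Tnnt1), beside 27.7% of all genes, and above both in 0, beside 25.1%. Members with groups that do not overlap were thus a smaller share than in the background. The median log2 fold change of the members was -0.62, beside -0.0014 over all genes.

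cKO 2 was the lowest library, or tied for the lowest, in 31 of 32 members, beside 27.9% of all genes, and the exception was Tnnc1. cKO 3 was the highest in 15 of the 32, beside 4760 of all 17440 genes. Over the 31 members without Myh7, the fold of cKO 3 over cKO 2 had a median of 6.88 and ran from 0.821 in Tnnc1 to 14.9 in Mb. Over all genes tested, this median was 0.981. The fold of the control mean over cKO 2 had a median of 5.85 and ran from 1.65 in Tnnt1 to 13.3 in Mb, so all 31 were lower in cKO 2 than in the control mean. The fold of control 3 over control 2 had a median of 1.52 and exceeded 1 in 29 of 31. The fold of cKO 3 over the control mean had a median of 1.12, running from 0.363 in Tnnc1 to 2.12 in Trim63.

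The calls followed which cKO library was in the fit. Without cKO 3, where the lone cKO 2 is assumed to vary like the controls, edgeR quasi-likelihood called 21 of 32 members lower, beside 2.85% of all genes lower. They were the fast isoforms Myh1, Myh2, Myh4, Myl1, Tnnt3, Tnni2, Myoz1 and Atp2a1, the slow Mybpc1, and Acta1, Actn2, Tpm2, Neb, Ttn, Des, Ryr1, Cacna1s, Ckm, Pygm, Eno3 and Mb. Their log2 fold changes ran from -1.43 ± 0.21 in Des (adjusted p = 0.0470) to -3.73 ± 0.19 in Mb (adjusted p = 0.0157). Muscle genes made up 59 of the 521 genes called lower in that fit, or 11.3%. Without cKO 2, 0 of 32 members were called, beside 8.99% of all genes, with 3 at an unadjusted p under 0.05, and the median log2 fold change of the members turned from -2.56 without cKO 3 to 0.12.

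**Figure D3:**
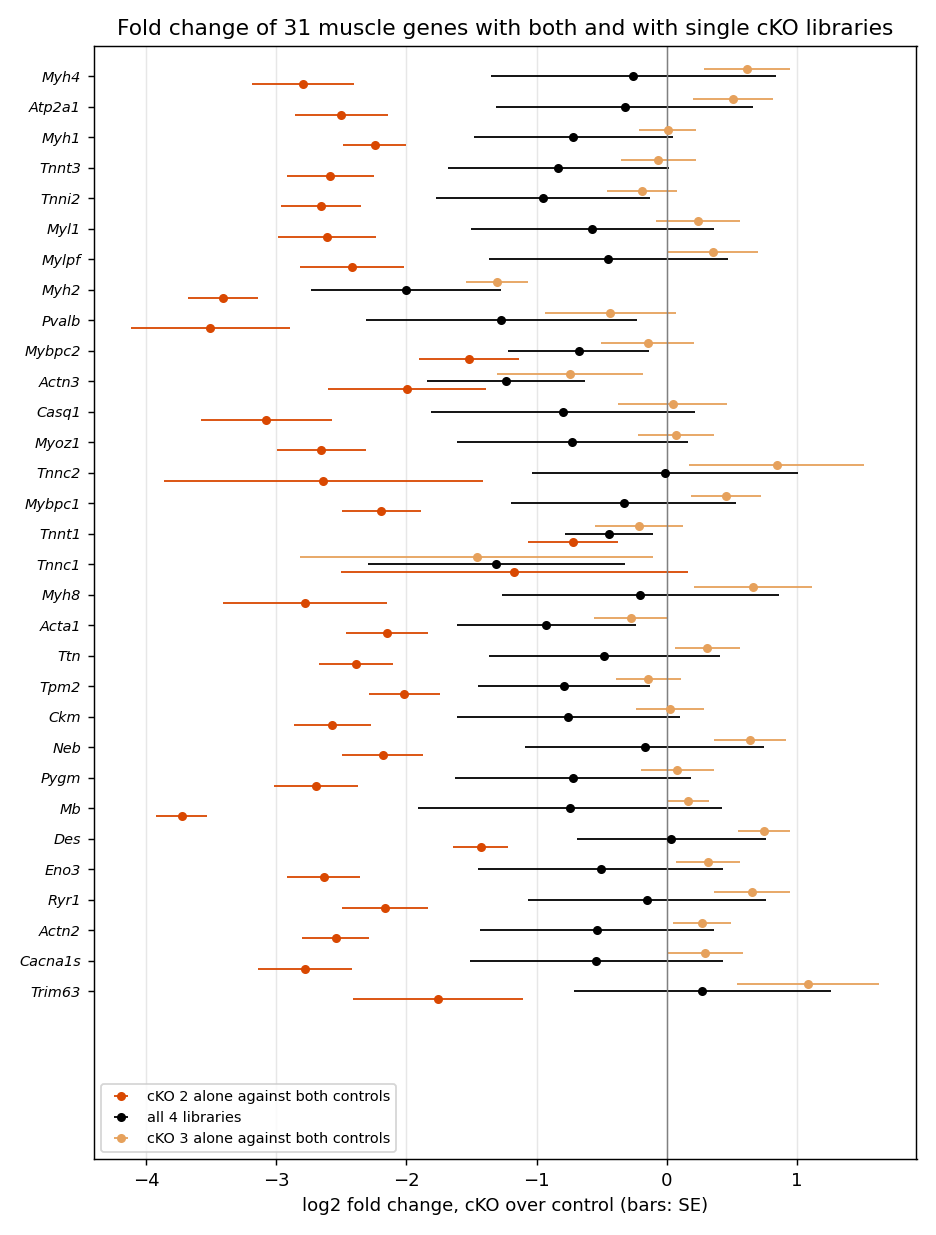
Log2 fold change, cKO over control, of 31 muscle genes (Myh7 left out, as its cKO libraries are at 0), fitted with all 4 libraries and with each cKO library alone against both controls, with bars for the SE. With cKO 2 alone nearly all points lie well below 0, with cKO 3 alone they scatter around 0. Myh2 lies below 0 in all 3 fits, as do Tnnt3, Tnni2, Actn3, Mybpc2, Pvalb, Tnnt1, Tnnc1, Acta1 and Tpm2.

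Summed slow isoforms were far below summed fast isoforms in every library. The log2 ratio of summed slow over summed fast CPM was -4.73 and -4.89 in the controls and -4.45 and -4.65 in cKO 2 and cKO 3. The cKO libraries were both above the controls, by 0.26 on average (exact permutation p = 0.333, the smallest the design allows). Mybpc1 supplied most of the slow sum, and the closeness of these ratios rests on it. Without it the log2 ratio was -8.64 and -11.22 in the controls and -9.18 and -11.58 in cKO 2 and cKO 3, a difference of -0.45 (exact permutation p = 0.667).

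The share of 6 members in the members' summed count was also compared, and these were chosen after their values were seen. Myh2 took 2.21% and 1.99% in the controls and 1.04% and 0.731% in the cKO libraries (log2 difference -1.26, exact permutation p = 0.333, the smallest possible). Des took 2.39% and 2.05% in the controls and 4.32% and 3.19% in the cKO libraries (0.75, exact permutation p = 0.333). Trim63 also had groups that did not overlap (0.89, exact permutation p = 0.333). Over the 31 members without Myh7, the share lay above both controls in both cKO libraries for 5 (Mybpc1, Neb, Des, Ryr1 and Trim63) and below both for 7 (Myh2, Tnnt3, Tnni2, Myoz1, Pvalb, Ckm and Pygm). In CPM, a different measure, both cKO libraries lay above both controls in 25.1% of all genes and below both in 27.7%. Whether the make-up of the muscle signal differs by group was thus not shown by these counts. For Mb the share was 2.77% and 2.16% in the controls, 0.969% in cKO 2 and 2.34% in cKO 3 (-0.70, exact permutation p = 0.667), so cKO 2 was the odd library. The differences were 0.03 for Myh4 and -0.16 for Actn3 (exact permutation p = 1 for each).

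**Figure D4:**
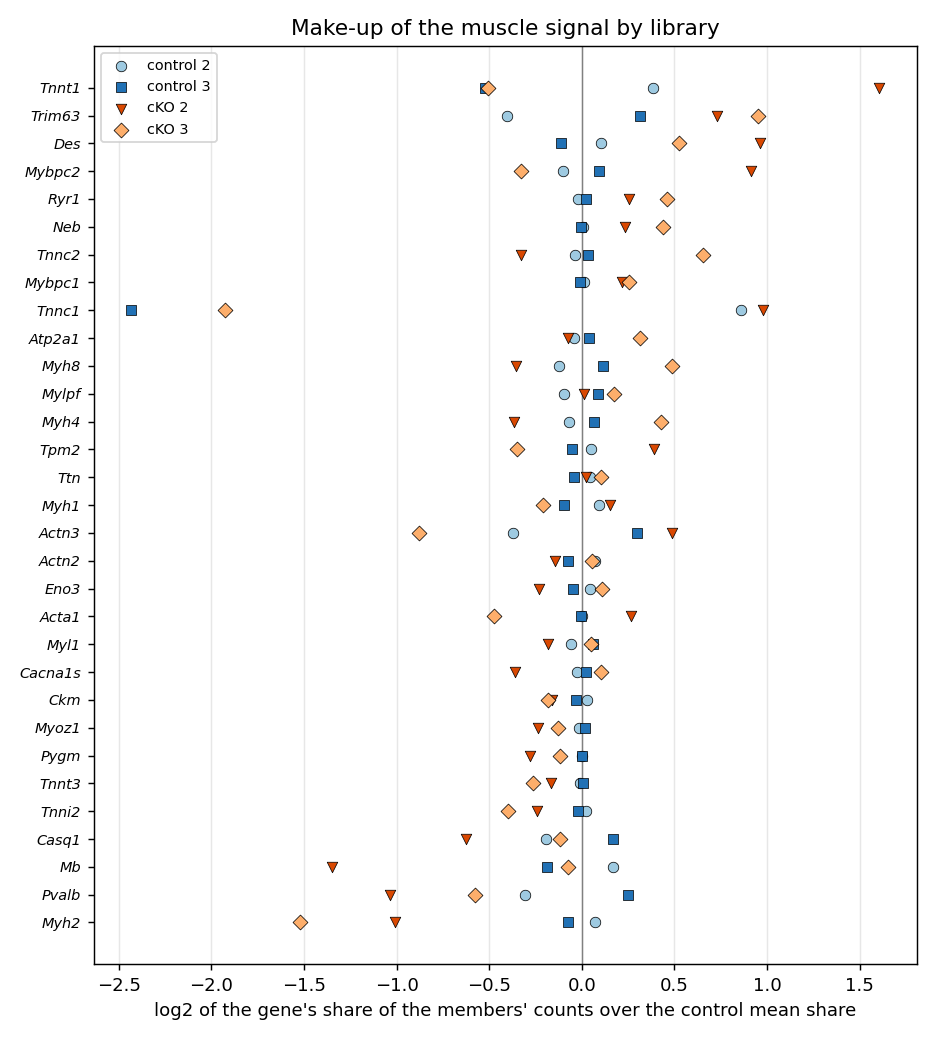
Share of each of 31 muscle genes (Myh7 left out) in the summed count of the 32, as the log2 of the share over the mean share of the controls, with 1 point per library and 0 marking the control mean. Most points lie near 0, both cKO points of Myh2 lie well below the controls and those of Des and Trim63 above, and for Mb cKO 2 alone is low.

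Other muscle genes were described with 10 further lists of 102 genes, of which 95 were tested, and edgeR quasi-likelihood called 0 of them. At an unadjusted p under 0.05 it had 5 of the 95, beside 3489 of all 17440 genes. cKO 2 was the lowest library in 83 of the 95 (87.4%), and the median fold of cKO 3 over cKO 2 was 5.73. cKO 3 was the highest library in 67 of the 95, beside 4760 of all 17440 genes. With cKO 3 as the only cKO library, the median log2 fold change of these lists was 0.51, beside -0.028 over all genes. Without cKO 3, 38 of the 95 were called lower, beside 2.85% of all genes, and 0 higher. Without cKO 2, 1 was called lower and 7 higher, about as often as the 8.99% of all genes called in that fit. Summed over a list, cKO 3 was 7.03-fold above cKO 2 for 20 M-band and Z-disc genes, 6.76-fold for 13 genes of excitation and calcium release, 7.32-fold for 13 genes of muscle energy metabolism and 4.90-fold for 9 genes of the neuromuscular junction. The fold was 4.56 for myogenic factors and satellite cells, 4.05 for atrophy genes, 3.08 for embryonic and regenerating fibres, 2.79 for other fast isoforms and 1.98 for the dystrophin complex. For the other slow isoforms it was 1.02, so their sum did not follow the muscle pattern. Tpm3 and Atp2a2, which other cells also make, supplied 282 and 486 of its 780 CPM in cKO 2. The other tested genes of this list were split. The fold was 6.47 for Myoz2, 3.44 for Myl2 and 3.05 for Casq2, but 0.900 for Tnni1 and 0.703 for Myl3. Myl2 and Myl3 had at most 11 counts in either cKO library, and Myoz2, Casq2 and Tnni1 are named after their values were seen.

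The other slow isoforms did not move together. Myl2, the regulatory light chain of slow and ventricular muscle, was at 4.82 and 5.20 CPM in the controls and at 0.191 and 0.656 in cKO 2 and cKO 3. Myl3, the matching essential light chain, was at 2.12 and 0.881 CPM in the controls and at 0.255 and 0.179 in cKO 2 and cKO 3. For both, as for Myh7, the cKO libraries lay below both controls, and neither passed with edgeR quasi-likelihood when all libraries were in the fit. With cKO 3 as the only cKO library, so at control-level muscle content, the log2 fold change of Myl2 was -2.92. Without cKO 3 it was -4.66. Tpm3, a tropomyosin of slow fibres that other cells also make, was at 223 and 207 CPM in the controls and at 282 and 285 in cKO 2 and cKO 3 (log2 fold change 0.40 ± 0.14, edgeR quasi-likelihood adjusted p = 0.230). Atp2a2, the calcium pump of slow fibres and of most other cells, was at 371 and 298 CPM in the controls and at 486 and 467 in cKO 2 and cKO 3 (0.51 ± 0.19, adjusted p = 0.242), and is named after its values were seen. Both genes were higher in both cKO libraries than in both controls. Tnni1, the slow inhibitory troponin subunit, was at 2.66 and 0.441 CPM in the controls and at 1.59 and 1.43 in cKO 2 and cKO 3. Among atrophy genes, Fbxo32, a ubiquitin ligase of muscle breakdown, was at 114 and 164 CPM in the controls and at 45.9 and 75.2 in cKO 2 and cKO 3. Satellite cell markers were scarce, with 3 to 16 counts of Pax7 per library.

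Markers of other cell types near the muscle layer did not follow it alike. The summed level of 10 smooth muscle genes was 649 and 662 CPM in the controls and 489 and 676 in cKO 2 and cKO 3. This was a 1.38-fold difference between the cKO libraries. Both cKO libraries lay below both controls in 5 of the 10, beside 27.7% of all genes, and above both in 0, beside 25.1%. Among the 5 was Myh11, the smooth muscle myosin, at 134 and 135 CPM in the controls and at 59.1 and 106 in cKO 2 and cKO 3. The sum of 11 adipocyte genes was 1442 and 2390 CPM in the controls and 999 and 953 in cKO 2 and cKO 3, so it was low in both cKO libraries. The sum of 6 tendon genes was 74.2 and 106 CPM in the controls and 107 and 617 in cKO 2 and cKO 3. All 6 were highest in cKO 3, but Thbs4 alone supplied 393 of the 617 CPM there. The sum of 8 Schwann cell genes was lowest in cKO 2, at 309 CPM, with 536 to 599 in the other libraries. The 8 fibroblast genes had sums of 7487 and 6570 CPM in the controls and 19653 and 12547 in cKO 2 and cKO 3, and 6 basal keratinocyte genes 10480 and 9327 in the controls and 18231 and 11960 in cKO 2 and cKO 3. cKO 2 thus had the least muscle and the highest of both these sums, but single genes did not all go this way. Without Krt14, a keratin of basal keratinocytes, the sum of the other 5 keratinocyte genes was 6580 and 6320 CPM in the controls and 6729 and 4218 in cKO 2 and cKO 3. Col17a1, a hemidesmosome collagen, was below both controls in both cKO libraries, at 649 and 422 CPM beside 1272 and 1379. The fibroblast genes Dpt and Dcn were lowest in cKO 2. The part of these in the muscle difference was not tested.

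**Figure D5:**
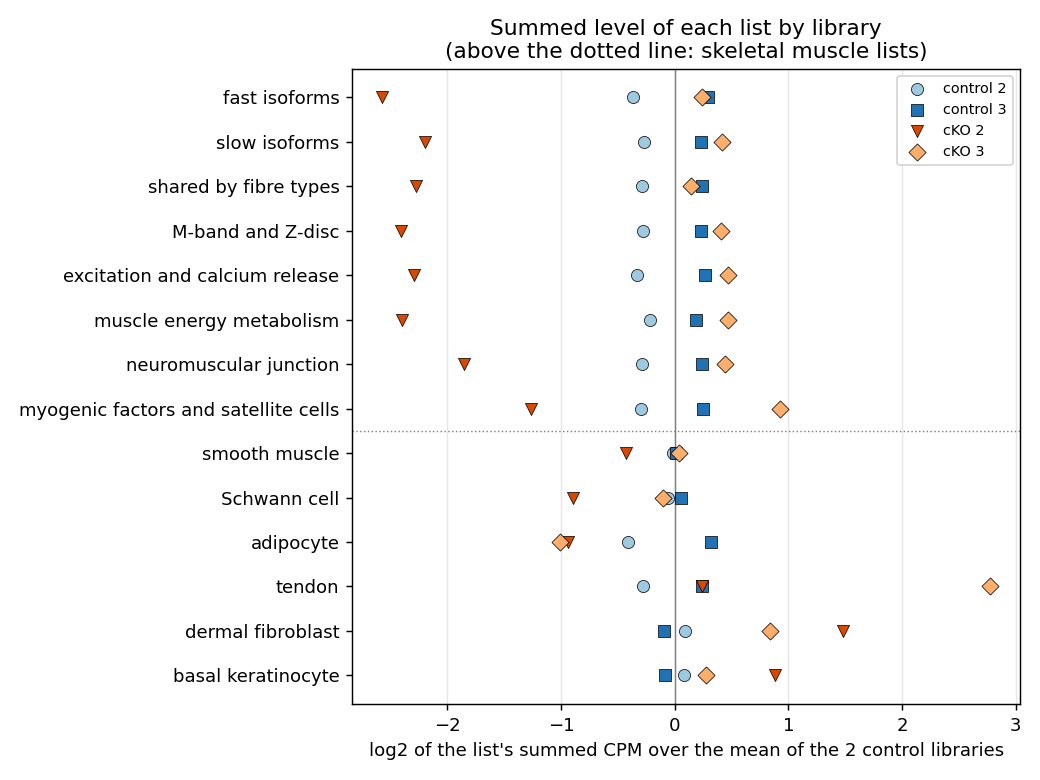
Summed TMM-scaled CPM of each of 14 gene lists, as the log2 over the mean of both controls, with 1 point per library and skeletal muscle lists above the dotted line. The cKO 2 points of the muscle lists lie far to the left (1924 CPM for fast isoforms, 8859 to 14007 in the other libraries), the smooth muscle points lie near 0, and both cKO points of the adipocyte list lie to the left.

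The count of calls over all genes was compared with and without the muscle genes. Taking the 134 genes of all muscle lists out of the table, of which 127 had been tested, moved the number of genes called by edgeR quasi-likelihood from 190 to 333. In that fit another 73 genes dropped out of the filter on low counts, leaving 17240 tested. With the filter held fixed, taking the muscle genes out of the tested genes left 17313 and gave 306 calls, and leaving out the 73 genes alone gave 190. These fits with a fixed filter were chosen after seeing the data. The 190 held 0 muscle genes and were all among the 333 and among the 306. With the new filter the TMM factors moved by at most 1.40%, and the cause was not tested.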

How the data were processed

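Poly(A) RNA of whole skin was sequenced in 4 libraries. Per the submitters' processing notes, the authors used RSEM, whose expected counts appear as whole numbers in their deposited file. FPKM per library was also deposited by the authors, per the file headers. Their log2 fold changes and p-values are in the same deposited file; the submitters' processing notes name edgeR and the build mm8. Aligner, annotation and strand handling were not given in the sources used here, so reads of overlapping or near-identical genes cannot be told apart. Columns headed Ctr were taken as the floxed controls, since the titles give no further group besides cKO.

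Genes were filtered with filterByExpr, scaled with TMM and tested with edgeR 4.0.16 (glmQLFit and glmQLFTest, no covariate, R 4.3.3), with Benjamini-Hochberg adjustment over all tested genes and a threshold of 0.05. The fit gave a biological coefficient of variation of 0.284. SE is the log2 fold change over the square root of the F statistic. DESeq2 1.42.0, the edgeR exact test, limma 3.58.1 (voom, and FPKM with a pseudocount of 0.1) and other filters and scalings were alternatives. Single values were tested by exact permutation. Totals of 15837136 to 23407731 counts per library set the counting precision. Figures were drawn with matplotlib 3.10.9.

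The members and lists were chosen with earlier results of these data known. All members may be named, with the 3 genes of smallest unadjusted p in each other list. Promoters came from RefSeq (GRCm38.p6) by symbol.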

Additional observations from a re-analysis of the deposited data

How the results depend on the processing

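The number of genes called, 190, moved to 883 with no filter on low counts, 1886 with DESeq2, 1811 with the edgeR exact test, 295 with limma on FPKM, 1177 with the replicate number as a block, 333 with muscle genes taken out and 306 with them taken out after the filter (chosen after seeing the data), and ran from 0 to 1664 when a library was left out. Members called, 0 of 32, moved to 2 with DESeq2, 1 with the exact test and 2 with the block (Actn3, adjusted p = 0.0244, and Myh7, 0.0280), and from 0 to 21 without a library. The labels share numbers across groups but do not say what they pair: deviations of the 2 pairs had a correlation of 0.41. The members' median log2 fold change ran from -2.56 to 0.12 and was -1.11 with the block, -1.12 with voom and -1.18 with FPKM; the difference in summed level ran from -2.39 to 0.23. Slow minus fast, 0.26, was 1.20 with other isoforms added, where Tpm3 and Atp2a2 supplied most of the added slow sum. Slow minus fast turned to -0.66 as a mean of log2 CPM and to -0.45 without Mybpc1, chosen after seeing the data. Directions also turned for Tnnc2 (0.0093, DESeq2 size factors), Des (-0.045 with library size alone, -0.34 voom, -0.40 FPKM, -0.33 block) and Trim63 (-0.15 voom, -0.25 FPKM, -0.15 block); the cause was not tested. Leaving out a library turned the log2 fold change of these genes, given as lowest to highest: Myh1 (-2.24 to 0.0077), Myh4 (-2.79 to 0.61), Mylpf (-2.42 to 0.35), Myl1 (-2.61 to 0.24), Tnnc2 (-2.64 to 0.84), Myoz1 (-2.65 to 0.071), Atp2a1 (-2.50 to 0.51), Casq1 (-3.07 to 0.045), Mybpc1 (-2.19 to 0.46), Myh8 (-2.78 to 0.66), Actn2 (-2.54 to 0.27), Neb (-2.18 to 0.64), Ttn (-2.38 to 0.31), Des (-1.43 to 0.75), Ryr1 (-2.16 to 0.66), Cacna1s (-2.78 to 0.30), Ckm (-2.57 to 0.024), Pygm (-2.69 to 0.082), Eno3 (-2.64 to 0.32), Mb (-3.73 to 0.16) and Trim63 (-1.76 to 1.10). Of 255 values of single members under settings that kept all libraries, 242 kept direction and side of the threshold. With 2 libraries per group, 1 library can decide a direction, as in 21 of the 32 members. In the other 11 the direction held in every fit that left out a library and tested the gene. Tnnc1, among these 11, was not tested without control 2, and control 3 (0.308 CPM) lay below cKO 2 and cKO 3 (0.509 and 0.418). Genes under about 10 CPM (Tnnc2, Tnnc1, Tnnt1 and Myh8) are limited by counting.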

Other observations

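cKO 3 stood above both controls in several further genes of muscle and tendon, which were chosen from several lists after their values were seen. Actc1, the cardiac α-actin that embryonic and regenerating fibres also make, was at 1.45 and 3.04 CPM in the controls and at 0.191 and 30.6 in cKO 2 and cKO 3. Mybph, a myosin-binding protein of fast fibres, was at 3.08 and 6.74 CPM in the controls and at 6.04 and 38.8 in cKO 2 and cKO 3. Pax3, a transcription factor of muscle progenitors and melanocytes, was at 2.53 and 2.38 CPM in the controls and at 3.37 and 14.0 in cKO 2 and cKO 3. Other genes of the embryonic and satellite cell lists did not go this way. Myh3, the embryonic myosin heavy chain, was at 0.831 and 2.42 CPM in the controls and at 0.127 and 2.27 in cKO 2 and cKO 3, so cKO 3 lay between the controls. Tnnt2, Myf5 and Pax7 were below both controls in cKO 3. Mymk, the membrane activator of myoblast fusion, had 0 counts in every library but cKO 3, where it had 10. Thbs4, a matrix protein of tendon, was at 15.4 and 26.1 CPM in the controls and at 42.3 and 393 in cKO 2 and cKO 3. The high values of Actc1, Mybph and Mymk rest on cKO 3 alone. Pax3 and Thbs4 were above both controls in cKO 2 as well, though by far less than in cKO 3. With all libraries in the fit, edgeR quasi-likelihood gave adjusted p-values of 0.483 for Actc1, 0.313 for Mybph, 0.272 for Pax3 and 0.206 for Thbs4. None of these genes was called with all libraries in the fit, and Mymk was not among the genes tested. With cKO 3 as the only cKO library, the log2 fold change was 3.77 for Actc1, 2.98 for Mybph and 2.50 for Pax3.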
